A study of Mus musculus with 6 samples.

Results

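The genes described here encode the proteins of the cytosolic ribosome. They were chosen by symbol as the protein-coding genes named Rpl or Rps and a digit, with *Rplp0*, *Rplp1*, *Rplp2* and *Rpsa*. The S6 kinases and symbols that contain -ps or -rs were left out, and a mean value of at least 20 over the libraries was required. Of 47729 genes in the table, 85 met this rule, 51 named for the large and 34 for the small subunit. *Rpl10l*, the testis copy of *Rpl10*, was left out with a mean value of 2.57, and *Rpl29* was the lowest gene kept, with a mean of 29.0. The symbol rule also kept *Rpl7l1* and *Rps19bp1*, whose products are not known as structural ribosomal proteins. It did not reach genes such as *Fau* and *Rack1*, which encode ribosomal proteins under other names.

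The libraries came from the upper end of the tibia (joint cartilage, growth plate and the bone and marrow beside them) of 14-day-old mice, 3 of the Control line and 3 of LS1. LS1 is a Longshanks line, selected over generations for a longer tibia relative to body mass, whereas Control is ICR stock bred at random in parallel. All mice were untreated, came from different families of generation 13, and gave 1 library each from the pooled left and right epiphyses. The samples were cartilage, bone and marrow together. A single selected line was set against a single control line, so selection and chance divergence between the lines cannot be told apart. The libraries held 68803249 to 88745366 reads. All 18 chondrocyte and all 10 osteoblast markers examined were past the filter on reads.

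Each ribosome joins a small subunit, which reads the mRNA, to a large subunit, which forms the peptide bond, and each subunit is built from ribosomal RNA and a fixed set of proteins. Growing cells make these proteins in near-equal amounts, and their mRNAs carry a stretch of pyrimidines at the 5′ end through which mTOR signalling adjusts their translation. In the growth plate, chondrocytes that secrete matrix and marrow cells that divide both depend on ribosome supply. Shortage of ribosomal proteins is known for blood phenotypes (Diamond-Blackfan anaemia) and for skeletal phenotypes, among them those of mouse *Rpl24* and *Rpl38* mutants.

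The pyrimidine stretch was looked for at the transcription starts in RefSeq (GRCm38.p6), which held 65 of the 85 genes. A run of C and at least 4 further C or T that began within 5 bases of the start was found in 30 of the 65 genes (46.2%), against 21.2% of the 27025 genes with a start in the same table. Under the stricter rule of a run of at least 7 bases at the start itself, the shares were 15.4% and 1.29%. The runs are shown for 7 members, some with negative and some with positive differences between the lines, in windows of 30 bases with 15 bases before the annotated start, 5′ to 3′, with the run in capitals. The windows lie at chr7:109519180-109519209 (*Rpl27a*, plus strand), chr7:4792950-4792979 (*Rpl28*, plus strand), chr1:39367836-39367865 (*Rpl31*, plus strand), chr4:86857353-86857382 (*Rps6*, minus strand), chr16:33056467-33056496 (*Rpl35a*, plus strand), chr7:141447636-141447665 (*Rplp2*, plus strand) and chr11:114668565-114668594 (*Rpl38*, plus strand).
Rpl27a: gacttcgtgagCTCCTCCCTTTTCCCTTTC
Rpl28: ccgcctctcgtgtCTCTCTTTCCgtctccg
Rpl31: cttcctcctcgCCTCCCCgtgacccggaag
Rps6: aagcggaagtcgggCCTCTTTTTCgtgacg
Rpl35a: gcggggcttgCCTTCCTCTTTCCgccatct
Rplp2: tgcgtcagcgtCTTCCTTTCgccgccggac
Rpl38: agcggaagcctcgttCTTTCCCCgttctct
*Rpl27a*, *Rpl28*, *Rpl31* and *Rps6* had negative and *Rpl35a*, *Rplp2* and *Rpl38* positive log2 fold changes between LS1 and Control, and each of these windows held a run. The median log2 fold change was -0.33 over the 30 genes with a run and -0.23 over the 35 without. Under the stricter rule the medians were -0.27 over the 10 genes with a run and -0.29 over the 55 without. The motif CCGGAAGT, searched on both strands of the promoter sequences, was found in 12 of the 65 genes (18.5%) and in 4.31% of all genes in the table. A match is a description of these letters only.

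In Control, most ribosomal protein genes were abundant, but their levels were far from equal. In RPKM, reads scaled to the length of the exon union and to the library total, the median level was 58.8, and 32 of the 85 genes were over 100. *Rps4x*, the X-linked gene of a small subunit protein, was highest at 847 ± 118 (SD, n = 3). *Rpl4* followed at 839 ± 132 and *Rplp1* at 713 ± 265, and these 3 genes lay within their spread of each other. At the low end were *Rps12* at 2.79 ± 0.240, *Rpl23a* at 1.17 ± 0.359, *Rpl3l* at 0.752 ± 0.0994 and *Rpl29* at 0.370 ± 0.0479. *Rpl3l* is the copy of *Rpl3* used in heart and skeletal muscle. The small subunit had a median level of 90.7 per length and the large subunit of 45.8.

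The low levels of core proteins such as *Rpl29*, *Rpl23a* and *Rps12* stood beside close copies of these genes elsewhere in the genome. In the annotation, 81 of the 85 genes shared at least 1 stretch of 50 bases with another gene, and over the 85 a median of 50.6% of the stretches of the principal transcript occurred in no other gene. For *Rps27* this share was 1.35%, and for *Rpl3l*, *Rpl39l* and *Rps19bp1* it was 100%. The 20 genes closest to *Rps12* in sequence together had values of 9521 to 17455 in Control, against 409 to 480 for *Rps12* itself. The 22 close to *Rpl29* had 9187 to 10428, against 27.7 to 34.4 for *Rpl29*, but that sum includes protein-coding Uimc1, a gene of another function. Across the 85 genes, which share libraries and read length, level per principal transcript length and unique share had a Spearman rho of 0.28. A value of a ribosomal protein gene here is the reads assigned to that locus. How reads shared between copies were assigned is not given, and the part of the copies in the low levels was not tested.

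**Figure D1:**
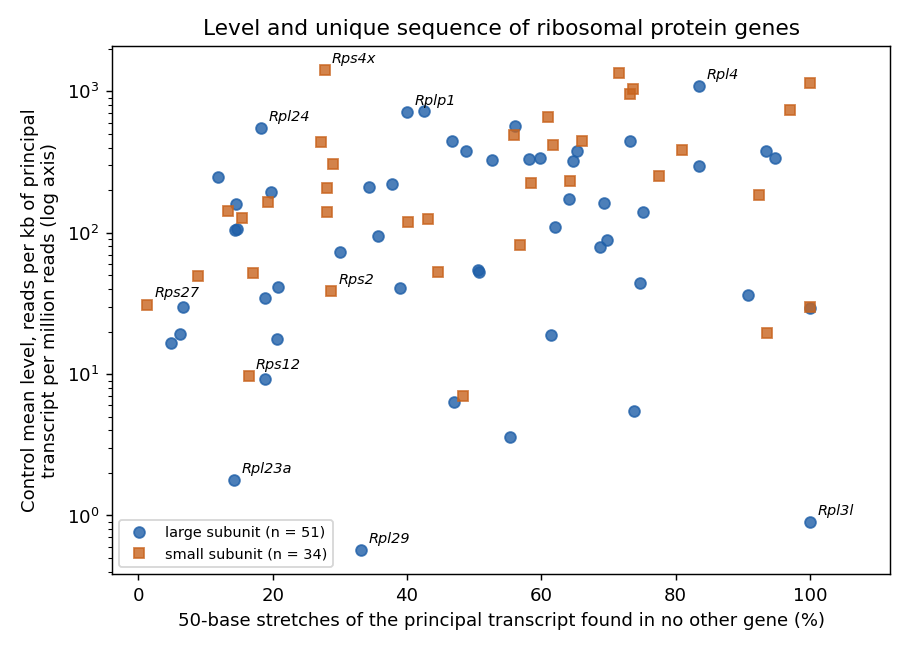
Control mean level of each ribosomal protein gene (reads scaled to principal transcript length and library total, log axis) against the percent of its 50-base stretches found in no other annotated gene. Circles are large subunit and squares small subunit genes; *Rpl29* and *Rpl23a* lie lowest among genes with close copies, while *Rpl3l*, at 100% unique sequence, also lies near the bottom.

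The comparison of LS1 with Control asked whether the expression of these genes differed between the lines. Of the 85 genes, 70 (82.4%) had a negative log2 fold change, against 49.3% of the 19308 genes tested. The median log2 fold change was -0.29 over the 85 genes and 0.01 over all genes tested. No ribosomal protein gene passed an adjusted p of 0.05 with limma, where 0.0622% of all genes were called lower and 0.0104% higher. At an unadjusted limma p under 0.05, 24 of the 85 (28.2%) were lower in LS1 and 0 were higher, where 5.86% of all genes tested were lower and 7.08% higher. In 17 genes (20%) every LS1 library lay below every Control library, against 8.94% of all genes, and in 1, *Rpl37a*, every LS1 library lay above, against 10.3%. With DESeq2, the tool the study used, 7 of the 85 (8.24%) were lower at an adjusted p under 0.05 and 0 higher, where 0.943% of all genes were called lower and 1.43% higher. With edgeR 0 of the 85 were called, where 0.0311% of all genes were called lower and 0.00518% higher. These samples are bulk tissue, in which fewer cells of a type and less RNA per cell cannot be told apart.

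**Figure D2:**
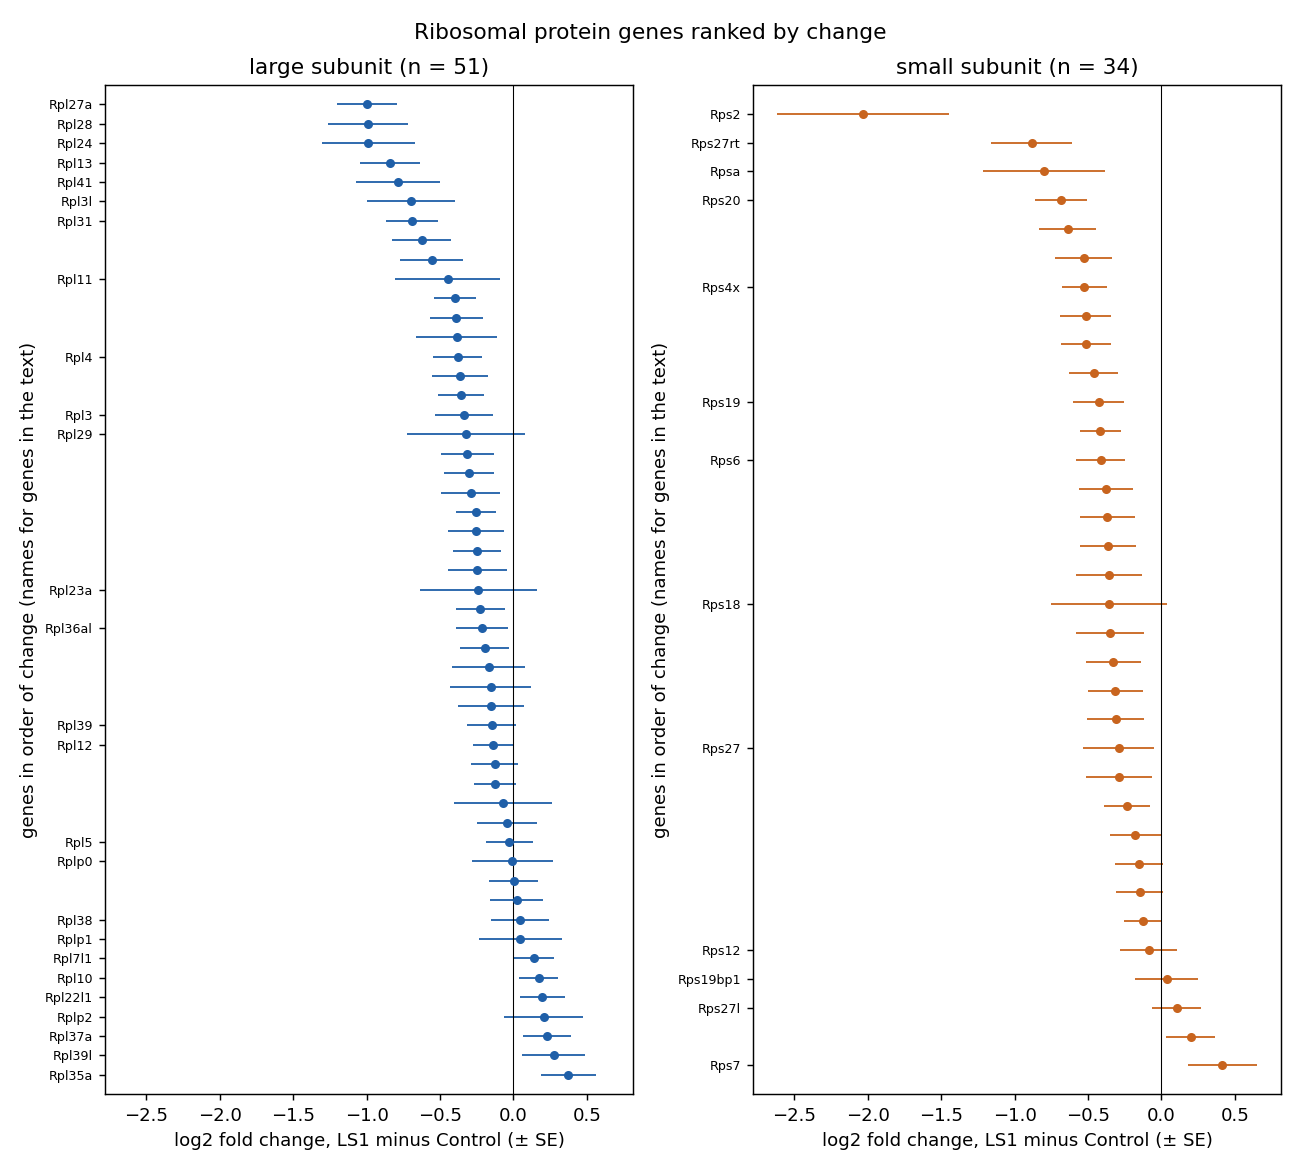
Log2 fold change of LS1 over Control with its standard error (limma, n = 3 per group) for each of the 51 large subunit genes and 34 small subunit genes, ranked within each subunit, with names at the genes the text describes. *Rps2* stands farthest to the left at -2.03, 70 of the 85 points lie left of 0, and *Rps7* and *Rpl35a* are highest at 0.41 and 0.37.

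The lowest log2 fold change was that of *Rps2* (ENSMUSG00000044533, chr17:24718116-24721929, plus strand), a small subunit protein near the channel through which mRNA enters. Its normalised read counts were 3524, 5099 and 1074 in Control and 759, 585 and 633 in LS1. The groups did not overlap, but Control replicate 3 was much closer to the LS1 libraries than to the other Control libraries. The log2 fold change was -2.03 with a standard error of 0.58 (limma adjusted p = 0.285, DESeq2 adjusted p = 0.0147), and without Control replicate 3 it was -2.69 with a limma adjusted p of 0.00127. The 27 close copies of *Rps2*, all pseudogenes, ran the other way among the Control libraries, with summed values of 11300, 8697 and 20634 in Control and 10394, 7996 and 10644 in LS1. Control replicate 3 was thus lowest of its group for *Rps2* and highest for its copies. *Rps2* summed with its copies had a log2 fold change of -0.68 (limma adjusted p = 0.219).

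*Rpl27a* (chr7:109519147-109522367, plus strand) and *Rpl28* (chr7:4792874-4795066, plus strand) encode large subunit proteins. *Rpl27a* had 10870, 18732 and 17101 in Control and 9050, 6448 and 7524 in LS1, with no overlap. The log2 fold change of *Rpl27a* was -0.996 with a standard error of 0.21 (limma adjusted p = 0.142, DESeq2 adjusted p = 0.000663). *Rpl28* had 20939, 24942 and 38164 in Control and 19880, 11774 and 10864 in LS1, and LS1 replicate 1 came close to the lowest Control library. For *Rpl28* the log2 fold change was -0.99 with a standard error of 0.28 (limma adjusted p = 0.245, DESeq2 adjusted p = 0.0129).

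*Rpl24*, *Rpl13* and *Rpl38* are the members best known from the skeleton. *Rpl24* is mutated in the Belly spot and tail mouse, *RPL13* in a human spondyloepimetaphyseal dysplasia, and *Rpl38* in the Tail short mouse, which has axial skeletal defects. *Rpl24* had 18774, 25238 and 41817 in Control and 18966, 12061 and 11086 in LS1, so that LS1 replicate 1 lay just above the lowest Control library. Its log2 fold change was -0.99 with a standard error of 0.31 (limma adjusted p = 0.285, DESeq2 adjusted p = 0.0139). *Rpl13* had 10079, 11179 and 13934 in Control and 8928, 5014 and 6090 in LS1, with no overlap. *Rpl13* thus had a log2 fold change of -0.84 with a standard error of 0.21 (limma adjusted p = 0.194, DESeq2 adjusted p = 0.0170). *Rpl38* gave no such separation, with 10620, 9376 and 15958 in Control and 10093, 13128 and 13124 in LS1. Its log2 fold change was 0.04 with a standard error of 0.20 (limma adjusted p = 0.947), and it was between -0.11 and 0.27 when each library was left out in turn.

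The other 2 genes called by DESeq2, *Rps20* and *Rpl31*, are named because of that call. *Rps20*, a protein of the small subunit head with 92.4% unique sequence and no close copy, had 46993, 51522 and 60697 in Control and 39901, 25347 and 34847 in LS1. Its log2 fold change was -0.69 with a standard error of 0.18 (limma adjusted p = 0.213, DESeq2 adjusted p = 0.0284). *Rpl31*, at the rim of the tunnel through which the new peptide leaves, had 5727, 5186 and 6743 in Control and 4179, 2814 and 4043 in LS1. Its log2 fold change was -0.69 with a standard error of 0.17 (limma adjusted p = 0.201, DESeq2 adjusted p = 0.0254). In both genes the LS1 libraries lay wholly below the Control libraries. *Rps4x*, the most abundant member, was separated as well, at 92097, 105029 and 123047 in Control and 84326, 65866 and 71748 in LS1 (log2 fold change -0.53, standard error 0.15, limma adjusted p = 0.238).

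**Figure D3:**
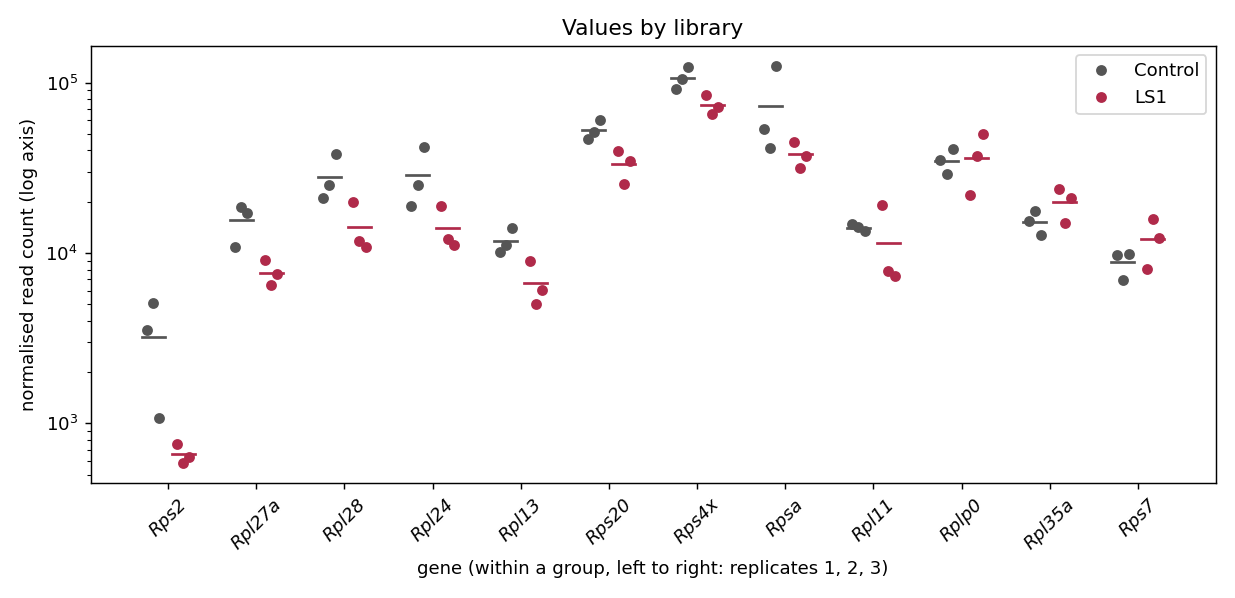
Normalised read count (log axis) of 12 ribosomal protein genes in each of the 6 libraries, with points in the order of replicates 1 to 3 and a bar at each group mean. LS1 points lie below all Control points for *Rps2*, *Rpl27a*, *Rpl28*, *Rpl13*, *Rps20* and *Rps4x*, Control replicate 3 of *Rpsa* stands at 125682, and LS1 replicate 1 of *Rpl11* stands at 19244, above the Control points.

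Several members turned on a single library. *Rpsa*, a small subunit protein also known as the laminin receptor, had 53333, 41328 and 125682 in Control and 45106, 31594 and 36955 in LS1. The fold change of -0.80 on the log2 scale (standard error 0.41, limma adjusted p = 0.477) fell in size to -0.32 without Control replicate 3. *Rpl11* had 14793, 14149 and 13382 in Control and 19244, 7826 and 7315 in LS1, with the LS1 libraries on both sides of a narrow Control range. Its log2 fold change was -0.45 (standard error 0.36, limma adjusted p = 0.635) with all libraries and -0.90 (limma adjusted p = 0.0175) without LS1 replicate 1. *Rps18*, chosen after its values were seen, also had LS1 replicate 1 above and LS1 replicates 2 and 3 below the Control range, with 6629, 5622 and 6275 in Control and 9391, 3174 and 3748 in LS1. *Rpl41*, the smallest ribosomal protein, had 22849, 20544 and 33843 in Control and 11198, 12237 and 22546 in LS1. Here LS1 replicate 3 was the library that reached the Control range, and without it the log2 fold change of *Rpl41* went from -0.79 to -1.10 (limma adjusted p = 0.0169).

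*Rpl11* binds *Mdm2* together with *Rpl5* and 5S ribosomal RNA, through which a failure of ribosome assembly is known to reach p53. *Rpl5* had 3453, 2685 and 2948 in Control and 2988, 2501 and 3450 in LS1, with a log2 fold change of -0.03 (standard error 0.16, limma adjusted p = 0.961). The *Rpl5* and *Rpl11* values thus did not move together in LS1 replicate 1. However, only 6.16% of the 50-base stretches of *Rpl5* and 37.8% of those of *Rpl11* occurred in no other gene. The 4 close copies of *Rpl5* had summed values of 11696 to 17338 over the libraries, so the comparison covers only reads assigned to each locus. Of 11 p53 pathway genes, 3 (27.3%) were below 0, against 49.3% of all genes tested, and the median log2 fold change was 0.10. At an unadjusted p under 0.05, 0 were lower and 1 (9.09%) higher, a share near the 7.08% of all genes. The 1 gene was *Ccng1*, a p53 target, with 10195, 9670 and 9303 in Control and 16622, 12257 and 10937 in LS1 (log2 fold change 0.43, limma adjusted p = 0.310).

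The stalk proteins, which recruit the elongation factors to the large subunit, have 4 genes. These had log2 fold changes of -0.14 to 0.21, with 2 below and 2 above 0, and 0 at an unadjusted p under 0.05. The median of the 4 was 0.02 with all libraries and -0.14 without LS1 replicate 3, and their median differences from the Control mean were -0.39, -0.03 and 0.38 in LS1 replicates 1 to 3. *Rplp0*, the base of the stalk, had 34942, 29087 and 40606 in Control and 21873, 37132 and 49977 in LS1. *Rplp1* had 34934, 15643 and 32061 in Control and 27418, 23091 and 30570 in LS1, and *Rplp2* had 13443, 10933 and 12107 against 8633, 16247 and 19521. *Rplp0* and *Rplp2* had both their lowest and their highest value within LS1, in replicates 1 and 3. The log2 fold changes were -0.01 for *Rplp0*, 0.05 for *Rplp1*, 0.21 for *Rplp2* and -0.14 for *Rpl12*, and the sign for *Rplp0* and *Rplp1* differed between limma and both count tools.

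*Rps7* and *Rpl35a* had the highest log2 fold changes. Both are mutated in Diamond-Blackfan anaemia. *Rps7* had 9737, 6953 and 9809 in Control and 8096, 15847 and 12215 in LS1 (log2 fold change 0.41, standard error 0.23, limma adjusted p = 0.491). *Rpl35a* had 15378, 17680 and 12750 in Control and 23881, 14923 and 21174 in LS1 (log2 fold change 0.37, standard error 0.19, limma adjusted p = 0.429). LS1 and Control libraries overlapped in both genes, and single libraries moved both values. For *Rps7* the log2 fold change was 0.25 without Control replicate 2, 0.67 without LS1 replicate 1 and 0.19 without LS1 replicate 2. For *Rpl35a* it was 0.23 without LS1 replicate 1 and 0.57 without LS1 replicate 2. *Rpl37a* was the gene in which they did not, at 841, 747 and 863 in Control and 916, 948 and 1005 in LS1 (log2 fold change 0.23, standard error 0.17, limma adjusted p = 0.585), and summed with its close copies it had a log2 fold change of -0.32. *Rpl39l*, the testis copy of *Rpl39*, was at 0.27 with overlapping libraries.

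Of the 17 Diamond-Blackfan anaemia genes 15 (88.2%) were below 0, with a median of -0.29, and 4 (23.5%) lower at an unadjusted p under 0.05. Over all 85 members these shares were 82.4% and 28.2%, and over all genes tested 49.3% and 5.86%. *Rps19*, the gene most often mutated in that disease, had 4048, 4397 and 6184 in Control and 3235, 3499 and 3999 in LS1, with no overlap (log2 fold change -0.43, standard error 0.17, limma adjusted p = 0.334). The genes of the small subunit head had a median of -0.37, with 14 of 14 below 0 and 5 (35.7%) lower at an unadjusted p under 0.05. The genes around the exit tunnel had a median of -0.24, with 8 of 8 below 0 and 1 (12.5%) lower at an unadjusted p under 0.05. *Rps6*, the target of the S6 kinases, had 8534, 7746 and 9471 in Control and 7582, 5000 and 6973 in LS1, again without overlap (log2 fold change -0.41, standard error 0.17, limma adjusted p = 0.334).

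Among copies with tissue-limited or special use, 6 of 8 listed were members, and 3 of the 6 were below 0. *Rps27rt*, a retrotransposed copy of *Rps27*, had 1689, 1219 and 1393 in Control and 1246, 587 and 621 in LS1 (log2 fold change -0.88, standard error 0.27, limma adjusted p = 0.257). It shares 91.1% of its 50-base stretches with *Rps27*, whose log2 fold change was -0.29, so reads of the pair are uncertain, and the sum of *Rps27* with its copies had a log2 fold change of -0.65. *Rpl3l* had 110, 87.6 and 88.5 in Control and 68.6, 55.7 and 51.3 in LS1, without overlap (log2 fold change -0.70, standard error 0.30, limma adjusted p = 0.357). Beside it, 10 of 10 skeletal muscle markers had negative log2 fold changes, with summed values of 12073 to 29235 in Control and 6235 to 16869 in LS1, and their part in the *Rpl3l* values was not tested. *Rpl22l1* was at 0.20, *Rps27l*, the p53-responsive copy of *Rps27*, at 0.10, and *Rpl36al* at -0.21, all with overlapping libraries. *Rps19bp1* and *Rpl7l1* were at 0.04 and 0.14.

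The large and small subunits were then set side by side. The median log2 fold change was -0.24 over the 51 large subunit genes, in a range of -0.996 to 0.37, and -0.36 over the 34 small subunit genes, in a range of -2.03 to 0.41. Among large subunit genes 40 of 51 (78.4%) were below 0 and 12 (23.5%) were lower at an unadjusted p under 0.05. Among small subunit genes 30 of 34 (88.2%) were below 0 and 12 (35.3%) were lower at that threshold. Over all genes tested 49.3% were below 0 and 5.86% were lower at it. The median of the small minus that of the large subunit was -0.12, and it stayed between -0.18 and -0.09 when each library was left out in turn. With each member summed with its close copies it was -0.066. Unique sequence was similar in both, with medians of 50.6% for the large and 52.1% for the small subunit.

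**Figure D4:**
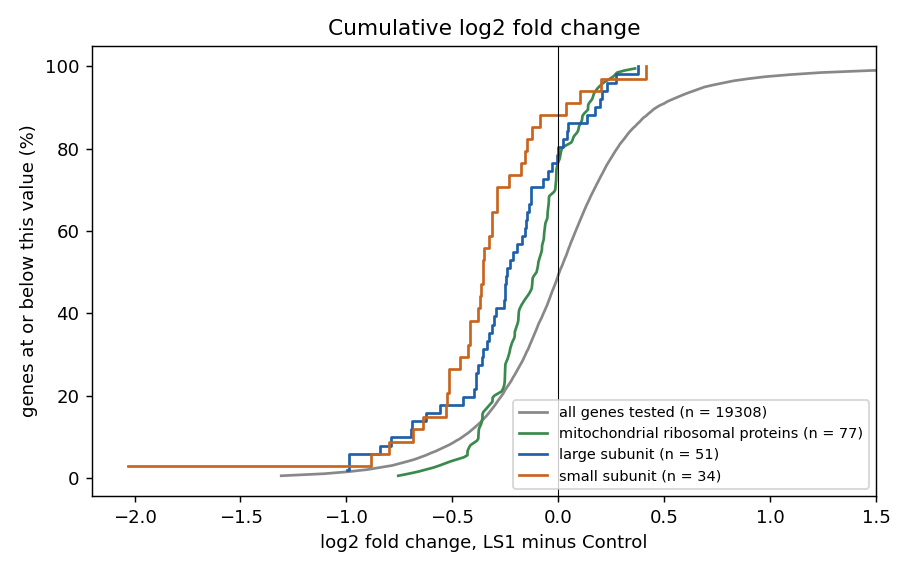
Percent of genes at or below each log2 fold change of LS1 over Control, for large subunit genes, small subunit genes, mitochondrial ribosomal protein genes and all genes tested. The small subunit curve lies farthest left over most of its length, with a median of -0.36, followed by the large subunit at -0.24, the mitochondrial set at -0.10 and all genes at 0.01.

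The libraries within a group were not alike. The median difference from the Control mean was -0.03, -0.13 and 0.16 (log2) for the large subunit in Control and -0.30, -0.38 and 0.04 in LS1. For the small subunit it was -0.03, -0.15 and 0.17 in Control and -0.32, -0.50 and -0.13 in LS1. LS1 replicates 1 and 2 were below all Control libraries for both subunits, whereas LS1 replicate 3 lay within the Control range for the large subunit and within it for the small subunit as well. In LS1 replicate 1, 51 of the 85 genes (60.0%) were under the lowest Control library, in LS1 replicate 2 60 genes (70.6%), and in LS1 replicate 3 32 genes (37.6%), against 35.3%, 28.1% and 26.2% of all genes tested. Control replicate 3 was the highest Control library in 59 of the 85 genes (69.4%), and Control replicate 2 the lowest in 56 (65.9%). Within LS1, too, replicate 3 was most often highest (47 genes, 55.3%) and replicate 2 most often lowest (41 genes, 48.2%). Over all genes tested, replicate 3 was highest in 36.0% in Control and 34.5% in LS1. Replicate 2 was lowest in 30.5% and 27.4% of them.

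**Figure D5:**
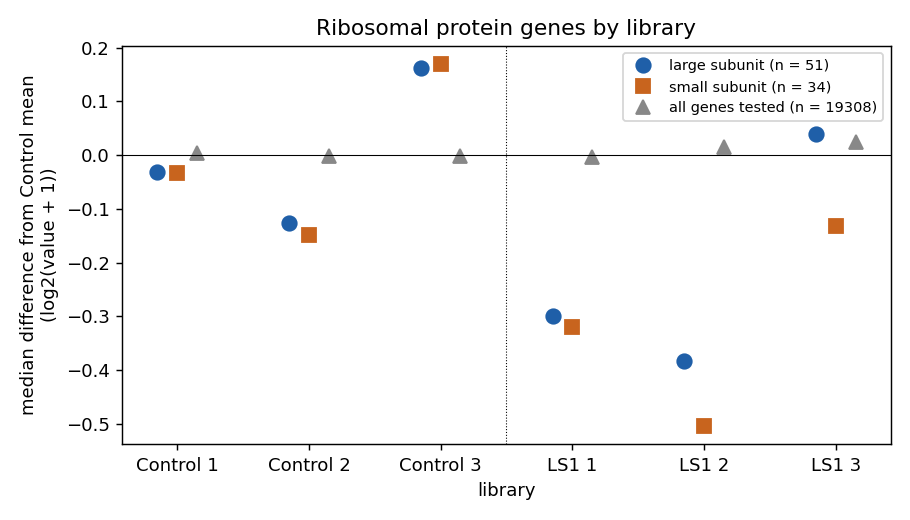
Median difference from the Control mean on the log2(value + 1) scale in each library, for the 51 large subunit genes, the 34 small subunit genes and all 19308 genes tested. LS1 replicates 1 and 2 lie between -0.30 and -0.50 for both subunits, LS1 replicate 3 at 0.04 and -0.13, and all genes near 0 in every library.

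The count of ribosomal protein genes lower at an unadjusted p under 0.05 depended on which library was left out. It was 21, 24 and 13 without Control replicates 1, 2 and 3, where 4.07%, 3.76% and 4.36% of all genes were lower. Without LS1 replicates 1, 2 and 3 it was 26, 12 and 35, where 5.62%, 5.09% and 7.55% of all genes were lower. Ribosomal protein genes took up 2.03%, 1.98% and 2.55% of the reads in Control and 1.62%, 1.60% and 1.95% in LS1. The mean share was 2.19% ± 0.316 (SD, n = 3) in Control and 1.72% ± 0.195 in LS1, and the groups did not overlap. The small subunit shares were 1.07%, 1.04% and 1.38% against 0.845%, 0.852% and 0.988%, without overlap, and the large subunit shares were 0.959%, 0.938% and 1.17% against 0.772%, 0.752% and 0.960%, where LS1 replicate 3 reached the Control range. Median log2 standard deviations within Control were 0.21 for ribosomal protein genes and 0.15 for all genes tested in the same range of values. Within LS1 they were 0.31 and 0.21.

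Markers of several cell types also differed between the groups, in both directions. Over all genes tested, 5.86% were lower and 7.08% higher at an unadjusted p under 0.05. Of 16 erythroid markers tested 16 had negative log2 fold changes and 8 (50.0%) were lower at an unadjusted p under 0.05. For 2 of them the limma adjusted p was under 0.05, where 0.0622% of all genes were called lower. The values of the 16 summed to between 1957758 and 2475257 in Control and between 1071588 and 1329288 in LS1. Library by library, the erythroid medians were 0.23, 0.01 and -0.23 in Control and -0.90, -0.29 and -0.47 in LS1, where those of the ribosomal protein genes were -0.03, -0.14 and 0.17 and then -0.31, -0.40 and -0.05, so the order within each group differed. Of 14 B cell markers 13 were negative and 9 lower at an unadjusted p under 0.05, with sums of 69710 to 73894 in Control and 40746 to 64890 in LS1. B cell medians by library were -0.01, -0.06 and 0.05 for Control and -0.39, -0.94 and -0.24 for LS1. Within each group their order was that of the ribosomal protein genes, unlike the erythroid order. Of 18 chondrocyte markers 14 were positive and 9 higher at an unadjusted p under 0.05, with sums of 2947096 to 3370420 in Control and 3862787 to 4355975 in LS1. Not all blood cell markers were lower: of 11 neutrophil markers 9 were positive and 2 higher at an unadjusted p under 0.05, with sums of 255483 to 355714 in Control and 327643 to 380779 in LS1. Of 10 macrophage markers 9 were positive and 1 higher at that threshold, with sums of 32615 to 43415 in Control and 41048 to 46687 in LS1. Interferon-induced genes had median differences from the Control mean of 1.86, 3.17 and -0.08 (log2) in LS1 replicates 1 to 3. No marker of the erythroid, B cell, chondrocyte or osteoblast lists that is in the table was at 0 in any library. The part of these cell types and of the interferon genes in the ribosomal protein values was not tested.

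Genes that act around the ribosome were counted in the same way, and no difference between these lists and the ribosomal protein genes was tested. Of ribosomal protein genes outside the symbol rule, *Fau* (fused to a ubiquitin-like protein) had a log2 fold change of -0.32 (limma adjusted p = 0.661) and *Rack1*, a scaffold on the small subunit, of -0.01 (limma adjusted p = 0.988). Of 17 translation factors and related genes known for the same 5′ pyrimidine stretch, 12 were below 0, with a median of -0.09, and 1 (5.88%) was lower at an unadjusted p under 0.05, against 5.86% of all genes. The 1 gene was *Eef1g*, a subunit of the elongation factor complex, with 11532, 10726 and 15160 in Control and 8440, 8601 and 11243 in LS1 (log2 fold change -0.40, limma adjusted p = 0.346). Of 47 ribosome biogenesis genes tested, 25 were below 0, with a median of -0.002, and 4 (8.51%) were lower and 0 higher at an unadjusted p under 0.05. Among these were *Ubtf*, the upstream factor of RNA polymerase I (log2 fold change -0.41, limma adjusted p = 0.315), *Dkc1*, which modifies ribosomal RNA (-0.29, 0.359), and *Fbl*, the ribosomal RNA methyltransferase (-0.39, 0.362). Of 16 genes of mTOR and translation control, 10 were below 0, with a median of -0.02, and 1, *Larp4*, was higher at an unadjusted p under 0.05 (log2 fold change 0.49, limma adjusted p = 0.310), which is 6.25% against 7.08% of all genes.

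The mitochondrial ribosomal proteins, which serve a separate ribosome, were compared as the most similar set of genes. Of 77 tested, 59 (76.6%) were below 0, with a median log2 fold change of -0.10, and 6 (7.79%) were lower at an unadjusted p under 0.05. In 7 of the 77 every LS1 library lay below every Control library (9.09%), a share near the 8.94% of all genes, against 20% of the cytosolic genes and 9 of 47 (19.1%) ribosome biogenesis genes. Their per-library medians were 0.01, -0.12 and 0.10 in Control and -0.23, -0.22 and 0.07 in LS1, with LS1 replicates 1 and 2 low and LS1 replicate 3 within the Control range, as for the cytosolic large subunit. *Mrpl54* had the lowest log2 fold change of the set, -0.80 (limma adjusted p = 0.293), with 1641, 1531 and 2073 in Control and 714, 838 and 1630 in LS1.

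The members are spread over 19 chromosomes, with 14 on chromosome 7. Of the 85 genes, 30 hold a total of 58 genes of small nucleolar RNAs, which guide ribosomal RNA modification, on the same strand, and 24 overlap an annotated gene on the opposite strand, *Rps2*, *Rpl28* and *Rpl31* among them, whose reads cannot be told apart where counting ignored strand. Over the 30 that hold small nucleolar RNA genes the median log2 fold change was -0.23, with 26 below 0, and over the other 55 it was -0.31, with 44 below 0. By unique sequence, the 21 genes under 25% unique had a median of -0.36, the 49 genes between 25% and 75% of -0.29 and the 15 genes of at least 75% of -0.21, and each of these medians was below 0.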

How the data were processed

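RNA of 3 Control and 3 LS1 epiphysis samples was sequenced as 35-50 base paired-end reads. Per the study's methods and processing notes, the authors used HISAT2 2.0.2 for mapping to GRCm38 (Ensembl release 84) and featureCounts 1.4.6 for counting. The treatment of reads that map to several places and of strand is not given in the sources used here. The deposited values are a signal per gene, the read count divided by 1 DESeq2 size factor per library. Reads were recovered by dividing by the value of 1 read, and 100% came out whole in each library, although in Control replicate 1 that value was too close to 1 to tell recovered from rounded reads. Of the table's genes, 98.9% matched GENCODE M21, and 0 columns were left out.

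Genes with a mean of at least 20 reads (19308) were tested on log2(value + 1) by limma 3.58.1 (R 4.3.3), including a mean-variance trend and robust moderation, and Benjamini-Hochberg adjustment over all genes at 0.05. Counts of genes at an unadjusted p are descriptions. edgeR 4.0.16 and DESeq2 1.42.0 on recovered reads were alternatives, with other scalings, filters and pseudocounts, a replicate block, loess offsets for length and for the GC content of the longest transcript (span 0.3), and each library left out. The code was tested on simulated counts. The smallest two-sided exact permutation p with 3 against 3 is 0.1, so none is given.

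The members and lists were chosen with earlier results of these data known. Named members are the 6 lowest and 6 highest by log2 fold change, any with an adjusted p under 0.05, the 4 highest and 4 lowest by level per length, and fixed members by role, with up to 3 other genes per related list, and a few of these are not reported here. Close copies were genes sharing at least 10% of the 50-base stretches of the principal transcript. Protein sequences were not used here. Labels do not say whether numbers or title letters pair the mice.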

Additional observations from a re-analysis of the deposited data

How the results depend on the processing

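The median log2 fold change stayed below 0 in all 19 alternatives, between -0.35 and -0.15 for the large subunit and between -0.45 and -0.25 for the small subunit. Beside the 24 ribosomal protein genes lower at an unadjusted p under 0.05, the alternatives gave 12 to 35 when a library was left out and 18 to 32 otherwise. The share of all genes lower at that p is not given for the alternatives that kept all libraries. Genes higher at that p numbered 0 to 2 with a library left out and 1 (*Rpl35a*) with no filter on reads. At an adjusted p under 0.05, 0 members passed with limma and 7 with DESeq2, where 14 and 459 of all genes tested were called. With a library left out 0 to 4 members passed, where 5 to 324 of all genes were called. The 4 without LS1 replicate 1 were *Rpl11*, *Rpl13*, *Rps18* and *Rps27rt*, and the share of all genes called in that fit is not given here. Small minus large subunit was -0.18 to -0.088 with a library left out.

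Over all genes, 14 were called by limma, 459 by DESeq2, 7 by edgeR, 8 with the length offset, 9 with a mean of at least 100 reads, 45 with no filter, 3 without trend and robust moderation, and 5 to 324 with a library left out, the most without LS1 replicate 3. The median level was 98.5 per longest transcript and 143 per principal transcript (75.4 and 107 for the large, 164 and 196 for the small subunit), in place of 58.8 per exon union. The stricter pyrimidine run was in 15.4% of members.

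Of 34 named members, the sign changed for uncalled genes: *Rplp1* with DESeq2 (-0.037), edgeR (-0.040) and summed copies (-0.12), *Rplp0* with DESeq2 (0.047), edgeR (0.044) and the GC offset (0.054), *Rps27l* with the GC offset (-0.024), and *Rpl37a* (-0.32) and *Rpl23a* (0.25) with summed copies. With a library left out the ranges were -0.28 to 0.32 for *Rplp0*, -0.32 to 0.26 for *Rplp1*, -0.14 to 0.092 for *Rpl5*, -0.11 to 0.27 for *Rpl38*, -0.13 to 0.25 for *Rps19bp1*, -0.0053 to 0.29 for *Rps27l* and -0.033 to 0.56 for *Rplp2*. The causes were not tested.

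Over all genes tested, deviations of mice with the same title letter had correlations of 0.05, 0.02 and 0.22 for A, B and C. Only C correlated best with its own letter. Among the members, however, the B mouse was most often lowest and the C mouse most often highest in both groups. With 3 mice per group, whether the letters pair the mice cannot be decided, and letters were not taken as pairs. The replicate block by title letter left the medians at -0.24 and -0.36 and gave 32 members lower at an unadjusted p under 0.05. The share of all genes lower at that p is not given for the block, so the 32 have no background beside them. With 3 mice per group, and p-values that measure the spread between these mice, small differences are not detectable, and *Rpl29*, *Rpl3l* and *Rpl23a* carry few reads.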
